A study of Rattus norvegicus with 16 samples.

Results

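The 10 vascular genes followed here were measured through injury of a rotator cuff muscle in the rat. They are the ligands Vegfa, Vegfb, Angpt1 and Angpt2, the receptors Kdr, Flt1, Tek and Tie1, and the endothelial surface proteins Pecam1 and Cdh5. They were taken by symbol from the deposited gene table, and 10 of 10 were found among its 17147 genes. All 10 passed the filter on low counts that left 11658 genes for testing. The smallest number behind any value was 70 fragments, for Angpt1, and the largest was 22984, for Vegfa.

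Messenger RNA was measured by sequencing of supraspinatus muscle from Sprague Dawley rats in 4 groups of 4 libraries. The control group was unoperated and is called 0 days. The 3 operated groups were collected 10, 30 and 60 days after the supraspinatus was torn through its full thickness on both sides and the suprascapular nerve, which supplies it, was resected. Tear and nerve injury were always combined and no group had a sham operation, so the 2 injuries and the surgery itself cannot be told apart. The labels give no age, and they do not say which libraries came from the same animal. The sample titles end in the letter L or R, which is not explained, and libraries of a group may share an animal. The p-values below thus measure the spread between these libraries, which may differ from that between animals. Levels are given in CPM, the fragments of a gene scaled to a common library total, after TMM scaling, which sets libraries on a common scale through the bulk of their genes. Fold changes and adjusted p-values come from edgeR's quasi-likelihood test with Benjamini-Hochberg adjustment over all tested genes, and a change was called at an adjusted p under 0.05.

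Vascular endothelial growth factor A, made by Vegfa, is the main growth and permeability signal for blood vessels. It acts chiefly through the receptor KDR, while FLT1 binds it tightly with weaker signalling and also takes up the related ligand VEGF-B. The angiopoietins form another axis: ANGPT1, made largely by cells around the vessel, activates the receptor TEK (Tie2) and keeps vessels quiet, and ANGPT2, made by the endothelium itself, blocks or activates TEK depending on context. TIE1 is a partner of TEK, CDH5 is the cadherin of endothelial junctions, and PECAM1 is a junction protein found also on leukocytes and platelets. In skeletal muscle, fibres themselves make VEGF-A for the capillaries that surround them. In whole muscle, fewer cells of a type and less RNA per cell cannot be told apart.

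Since several of these genes moved together, the stretches just upstream of their start sites are shown. Promoter entries matched Vegfa, Vegfb, Kdr, Flt1 and Tie1, which is 5 of the 10 genes. The sequences are RefSeq's on build GRCr8, while the deposited counts were made on rn5, and no coordinate was converted between them. Each line runs 5′ to 3′ over the 150 bases before the start: Vegfa at chr9:22452704-22452853 on the plus strand (the more upstream of 2 listed starts), Vegfb at chr1:213607153-213607302 on the minus strand, Kdr at chr14:32571913-32572062 on the plus strand, Flt1 at chr12:12333280-12333429 on the plus strand, and Tie1 at chr5:137304982-137305131 on the minus strand. Capitals mark the core of the hypoxia response element (ACGTG or GCGTG) and the core bound by ETS factors (GGAA), on either strand.
Vegfa: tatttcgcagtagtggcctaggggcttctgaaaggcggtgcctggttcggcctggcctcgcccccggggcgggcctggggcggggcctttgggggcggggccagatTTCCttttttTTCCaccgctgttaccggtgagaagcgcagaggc
Vegfb: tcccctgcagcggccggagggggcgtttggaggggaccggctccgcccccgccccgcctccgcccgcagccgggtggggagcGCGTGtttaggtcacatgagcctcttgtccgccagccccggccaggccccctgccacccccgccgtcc
Kdr: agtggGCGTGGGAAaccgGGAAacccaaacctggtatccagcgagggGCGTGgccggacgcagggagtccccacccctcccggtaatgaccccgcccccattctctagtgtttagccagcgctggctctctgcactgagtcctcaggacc
Flt1: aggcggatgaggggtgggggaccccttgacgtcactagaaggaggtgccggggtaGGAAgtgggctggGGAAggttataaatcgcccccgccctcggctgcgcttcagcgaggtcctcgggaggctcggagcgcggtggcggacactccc
Tie1: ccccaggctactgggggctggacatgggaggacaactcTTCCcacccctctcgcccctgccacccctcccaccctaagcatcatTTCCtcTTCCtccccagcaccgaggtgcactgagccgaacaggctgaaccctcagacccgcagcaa
Counts of matches were taken over the 250 bases before each start. ACGTG overlaps its own reverse complement in CACGTG, and the other motifs were searched without regard to overlap. Kdr, a receptor gene under ETS control in endothelium, held 2 hypoxia cores. Vegfb and Flt1 held 1 hypoxia core each, and Vegfa and Tie1 held none in this window. A hypoxia core of either form was present in 36.7% of the 33469 promoters in the table, and GGAA in 93.2%. ETS cores numbered 4 in Vegfa, Kdr and Tie1, 3 in Flt1 and 1 in Vegfb. The GC box GGGCGG was present in all 5 of these promoters, with 4 matches in Vegfb, 3 in Vegfa and Flt1 and 1 in Kdr and Tie1, against 30.5% of all promoters. These windows were also rich in G and C, from 60.4% in Vegfa to 73.2% in Vegfb and Flt1, where the median of all promoters was 51.2%.

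Library totals ran from 17.18 to 39.9 M fragments (M, mega), and the 60 day libraries were the shallowest at 17.18 to 22.39 M. The 10 most abundant genes took 23.71% to 25.12% of the fragments at 0 days and 12.63% to 14.69% at 10 days, and the TMM factors moved with them, from 0.7503 to 0.7747 at 0 days and from 1.178 to 1.236 at 10 days. Scaling by library totals instead shifted the middle of all fold changes: the median over every tested gene went from 0.06 to 0.72 on the log2 scale for 10 against 0 days, from 0.05 to 0.54 for 30 and from 0.04 to 0.45 for 60. A direction given below is thus one relative to most other genes, and a direction that turns under library totals is named where it is given. Markers of muscle fibres were high in every library, with a summed level of 216600 to 239100 CPM at 0 days, and 21 further endothelial genes were measured. Robo4 and Cd34, also endothelial, were listed at 0 in all 16 libraries. The fibroblast collagen gene Col1a2 was listed at 0 as well, where its partner Col1a1 had 74.3 to 1151 CPM, so a listed 0 may be a failed estimate and is not read as absence.

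With TMM scaling all 10 vascular genes were lower at 10 days than in unoperated muscle, most of all Vegfa, Angpt2, Flt1 and Kdr. The differences of Vegfb, Tek, Pecam1 and Cdh5 turned to 0.01, 0.07, 0.25 and 0.16 on the log2 scale with library totals. Of the 10 genes, 9 were higher again at 60 days than at 10 days. At 10 days 0 genes were called higher and 10 lower, where 33.3% of all tested genes were called higher and 29.4% lower. With library totals, 4 of the 10 were called lower at 10 days (Vegfa, Angpt2, Kdr and Flt1) and 0 higher, against 70% of all genes called higher and 10.1% lower. The 0 day and 10 day libraries did not overlap for 9 of the 10, the exception being Pecam1, where 27.8% of all genes were lower without overlap. All 10 differed somewhere among the 4 times in edgeR's joint test, with adjusted p from 2.06e-08 for Vegfa to 0.00438 for Cdh5, a test that 84.7% of all genes passed.

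**Figure D1:**
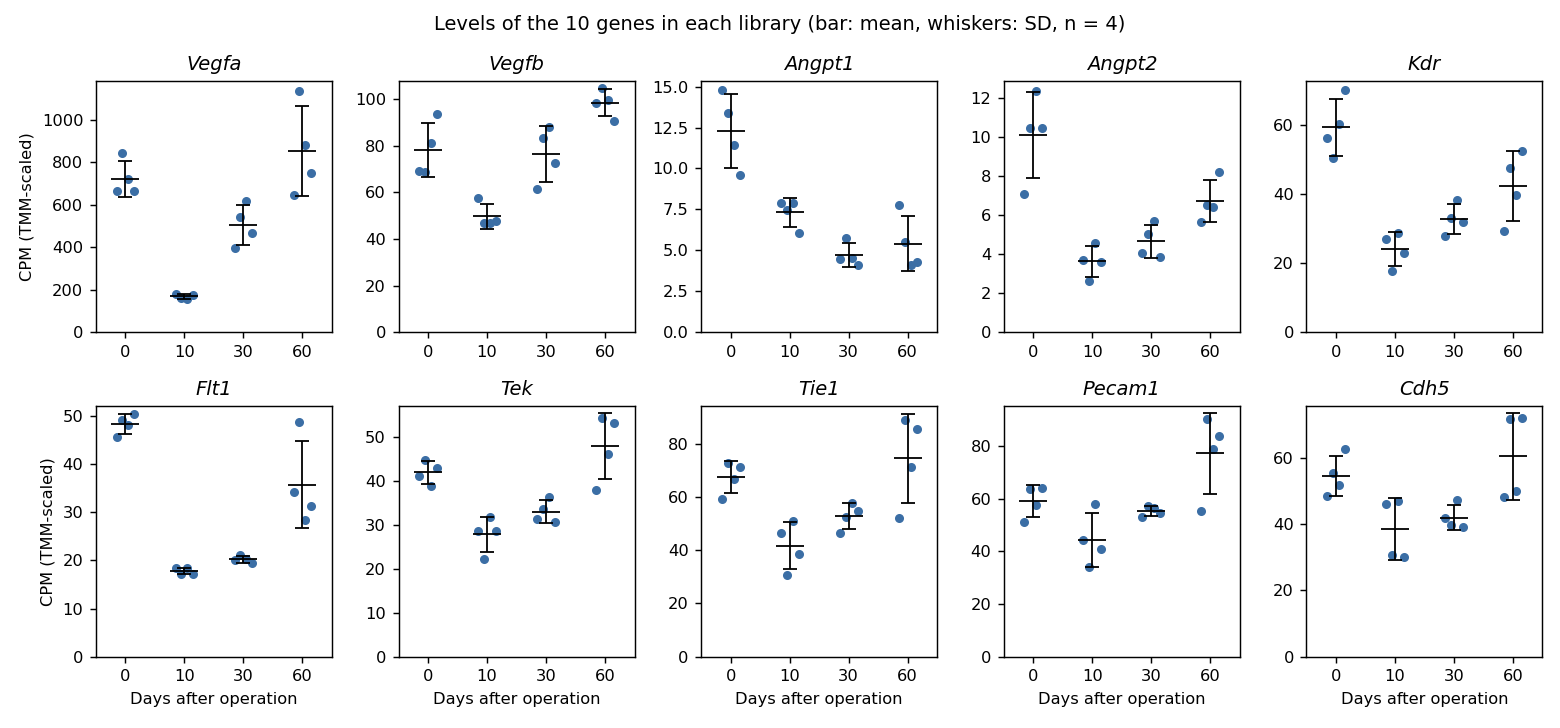
Level of each of the 10 genes in every library, in TMM-scaled CPM on a linear axis from 0, against days after operation (0, 10, 30, 60). Points are libraries, bars are means and whiskers are SD over 4 libraries; Vegfa falls from 663 to 843 CPM at 0 days to 156 to 182 CPM at 10 days, while Angpt1 is lowest at 30 and 60 days.

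Vegfa had the widest swing of the 10 genes. Its level was 663, 843, 719 and 664 CPM in the 4 unoperated libraries (mean 722 ± 84.8, SD, n = 4) and 182, 162, 156 and 176 CPM at 10 days (169 ± 11.8, SD, n = 4). It stood at 397, 544.5, 616.5 and 465 CPM at 30 days (506 ± 95.5, SD, n = 4) and at 645, 1134, 881 and 748 CPM at 60 days (852 ± 211, SD, n = 4). Every 10 day library lay far below every library of the other times, and the 60 day libraries overlapped the unoperated ones. Vegfa fell 4.28-fold at 10 days, a log2 fold change of -2.10 ± 0.163 (SE, adjusted p = 1.5e-08). It was still lower at 30 days (-0.51 ± 0.157, adjusted p = 0.00891), a difference that was -0.03 with library totals (adjusted p = 0.858). At 60 days it was 0.24 ± 0.157 from the controls (adjusted p = 0.201), or 0.65 with library totals (adjusted p = 0.000927), and it had risen 5.04-fold from 10 days (adjusted p = 2.12e-08).

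Vegfb, the ligand that binds FLT1 but not KDR, moved less. Its level was 69.3, 68.8, 80.9 and 93.6 CPM at 0 days, and 57.6, 46.9, 46.7 and 47.6 CPM at 10 days. It was 61.6, 83.4, 88.1 and 72.4 CPM at 30 days and 98.3, 104.7, 99.8 and 90.7 CPM at 60 days. The 10 day libraries lay below all others, and the 60 day libraries lay above all 30 day ones. Vegfb fell 1.57-fold at 10 days with TMM scaling (-0.65 ± 0.117, adjusted p = 0.000126), where library totals gave 0.01 (adjusted p = 0.96). It was higher than in controls at 60 days (0.33 ± 0.116, adjusted p = 0.0218), a call made under each of the 4 library scalings tried but lost without 0 day library 1, 0 day library 2 or 60 day library 2 (adjusted p up to 0.0602).

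Angpt1, the activating ligand of TEK, was the 1 gene of the 10 that had no called rise after 10 days. It was present at 14.8, 13.4, 11.4 and 9.58 CPM at 0 days, and at 7.89, 7.46, 7.88 and 6.06 CPM at 10 days. The values were 4.46, 5.77, 4.52 and 4.10 CPM at 30 days and 7.79, 5.50, 4.09 and 4.27 CPM at 60 days. No operated library reached the lowest unoperated one. The decrease against 0 days was 1.68-fold at 10 days (-0.75 ± 0.186, adjusted p = 0.00218; library totals -0.09, adjusted p = 0.656), 2.59-fold at 30 days (-1.37 ± 0.191, adjusted p = 1.1e-05) and 2.26-fold at 60 days (-1.18 ± 0.193, adjusted p = 7.72e-05). Its fall at 30 and 60 days was called under all 4 scalings. Between 10 and 30 days it fell further (-0.63 ± 0.19, adjusted p = 0.0124), and 60 days differed from 10 days by -0.43 ± 0.193 (adjusted p = 0.0623), or by -0.67 without 60 day library 1 (adjusted p = 0.00333).

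Angpt2, the context-dependent ligand, fell early and then climbed. It was 7.09, 10.5, 12.4 and 10.5 CPM at 0 days, and 3.71, 2.63, 4.58 and 3.60 CPM at 10 days. At 30 days it was 4.04, 5.03, 5.68 and 3.86 CPM, and at 60 days 5.67, 6.51, 6.43 and 8.22 CPM. Both the 10 day and 30 day libraries lay below every control, and the 60 day ones overlapped the controls. It fell 2.79-fold at 10 days (-1.48 ± 0.194, adjusted p = 5.03e-06) and was 2.18-fold lower at 30 days (-1.12 ± 0.192, adjusted p = 8.73e-05), both called under all 4 scalings. The 60 day difference (-0.59 ± 0.191, adjusted p = 0.0136) was -0.18 with library totals (adjusted p = 0.427) and lost its call without 0 day library 3 (adjusted p = 0.0617). In RefSeq the gene overlaps the protein-coding gene Mcph1, which is not in the deposited table, and the strand setting of the counting is not given in the sources used here.

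Among the receptors, Flt1 and Kdr fell most. Flt1 was 45.7, 49.1, 48.2 and 50.5 CPM at 0 days, 18.4, 17.3, 18.4 and 17.2 CPM at 10 days, and 20.02, 21.2, 20.3 and 19.4 CPM at 30 days. At 60 days it was 34.2, 48.8, 28.5 and 31.4 CPM, with library 2 inside the control range and the other 3 below it. The 10 and 30 day groups were tight and lay far below the controls. Flt1 fell 2.72-fold at 10 days (-1.44 ± 0.121, adjusted p = 3e-08) and 2.39-fold at 30 days (-1.26 ± 0.12, adjusted p = 1.87e-07), called under all 4 scalings. At 60 days the difference was -0.44 ± 0.118 (adjusted p = 0.00457), or -0.03 with library totals (adjusted p = 0.835). Between 30 and 60 days it rose 1.76-fold (adjusted p = 0.000226). In RefSeq Flt1 also overlaps 2 long noncoding RNA genes and 1 pseudogene.

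Kdr, the main signalling receptor for VEGF-A, was 56.1, 50.4, 60.3 and 70.0 CPM at 0 days and 27.1, 17.6, 28.7 and 22.8 CPM at 10 days. It was 27.9, 33.0, 38.3 and 31.9 CPM at 30 days and 29.2, 47.4, 39.6 and 52.4 CPM at 60 days. The 10 and 30 day libraries all lay below the controls, and 1 of the 4 libraries at 60 days reached the control range. Kdr fell 2.46-fold at 10 days (-1.30 ± 0.176, adjusted p = 9.32e-06), a fall called under all 4 scalings, and was lower at 30 days too (-0.85 ± 0.174, adjusted p = 0.000505; library totals -0.36, adjusted p = 0.0812). The 60 day difference was smaller (-0.49 ± 0.174, adjusted p = 0.0239; library totals -0.07, adjusted p = 0.738). It lost its call without 0 day library 3 or 4 or 60 day library 1 or 3 (adjusted p up to 0.0933).

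Tek and its partner Tie1 changed less than the VEGF receptors. Tek, the angiopoietin receptor, was 41.2, 44.8, 38.8 and 43.0 CPM at 0 days, 28.7, 22.3, 31.9 and 28.7 CPM at 10 days, 31.4, 33.6, 36.4 and 30.6 CPM at 30 days, and 38.04, 54.4, 46.2 and 53.3 CPM at 60 days. Its fall at 10 days was called with TMM scaling (-0.59 ± 0.115, adjusted p = 0.000294) and turned to 0.07 with library totals (adjusted p = 0.607). The 30 day fall (-0.35 ± 0.115, adjusted p = 0.0142) likewise turned to 0.14 with library totals (adjusted p = 0.315). Every 10 and 30 day library of Tek was below every control, and the 60 day libraries spread around the controls (0.19 ± 0.115, adjusted p = 0.159).

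Tie1 was 59.4, 72.7, 66.8 and 71.1 CPM at 0 days, 46.6, 30.7, 51.0 and 38.7 CPM at 10 days, 46.5, 52.6, 57.8 and 54.8 CPM at 30 days, and 52.0, 88.8, 71.3 and 85.6 CPM at 60 days. Its 10 and 30 day libraries lay below the controls, and its 60 day libraries fell on both sides of them. It fell 1.62-fold at 10 days (-0.69 ± 0.161, adjusted p = 0.00135), against -0.03 with library totals (adjusted p = 0.874). Later differences from 0 days were -0.35 ± 0.16 at 30 days (adjusted p = 0.0648; library totals 0.14) and 0.14 ± 0.16 at 60 days (adjusted p = 0.466).

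The junction genes of the endothelium fell least. Cdh5 was 48.5, 55.3, 51.8 and 62.7 CPM at 0 days, 46.1, 30.7, 46.9 and 30.0 CPM at 10 days, 41.7, 39.6, 47.3 and 39.3 CPM at 30 days, and 48.3, 71.6, 50.0 and 71.9 CPM at 60 days. The 10 day libraries of Cdh5 formed a higher and a lower pair, both under the controls. It fell 1.42-fold at 10 days with TMM scaling (-0.51 ± 0.164, adjusted p = 0.0134), where library totals gave 0.16 (adjusted p = 0.421). At 30 days it differed from controls by -0.38 ± 0.164 (adjusted p = 0.0527), and library totals turned this to 0.11. This value sat on the threshold, and 8 of the 16 fits that left out 1 library called it (adjusted p from 0.0414 to 0.153); those were the fits without any 1 of the 4 libraries at 10 days, 30 day library 3, or 60 day library 1, 2 or 3.

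Pecam1, which leukocytes and platelets carry as well, was 51.2, 63.7, 57.7 and 64.1 CPM at 0 days, 44.5, 34.0, 58.1 and 40.9 CPM at 10 days, 53.3, 57.2, 56.5 and 54.5 CPM at 30 days, and 55.4, 90.4, 79.0 and 83.9 CPM at 60 days. The third library at 10 days lay within the control range. Its fall at 10 days (-0.42 ± 0.15, adjusted p = 0.0237) turned to 0.25 with library totals (adjusted p = 0.174) and lost its call without 0 day library 2 or 4 or 10 day library 2 or 4 (adjusted p up to 0.0785). At 60 days Pecam1 was higher than in controls (0.38 ± 0.15, adjusted p = 0.0389), a call made under all 4 scalings but lost without 0 day library 1 or 3 or 60 day library 2, 3 or 4 (adjusted p up to 0.124). Macrophage and leukocyte markers, which share Pecam1 with the endothelium, were also higher then, with 13 of 13 called higher at 60 days and a summed level of 259.9 to 475.7 CPM against 80.97 to 118.9 CPM at 0 days; their part in the Pecam1 value was not tested.

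**Figure D2:**
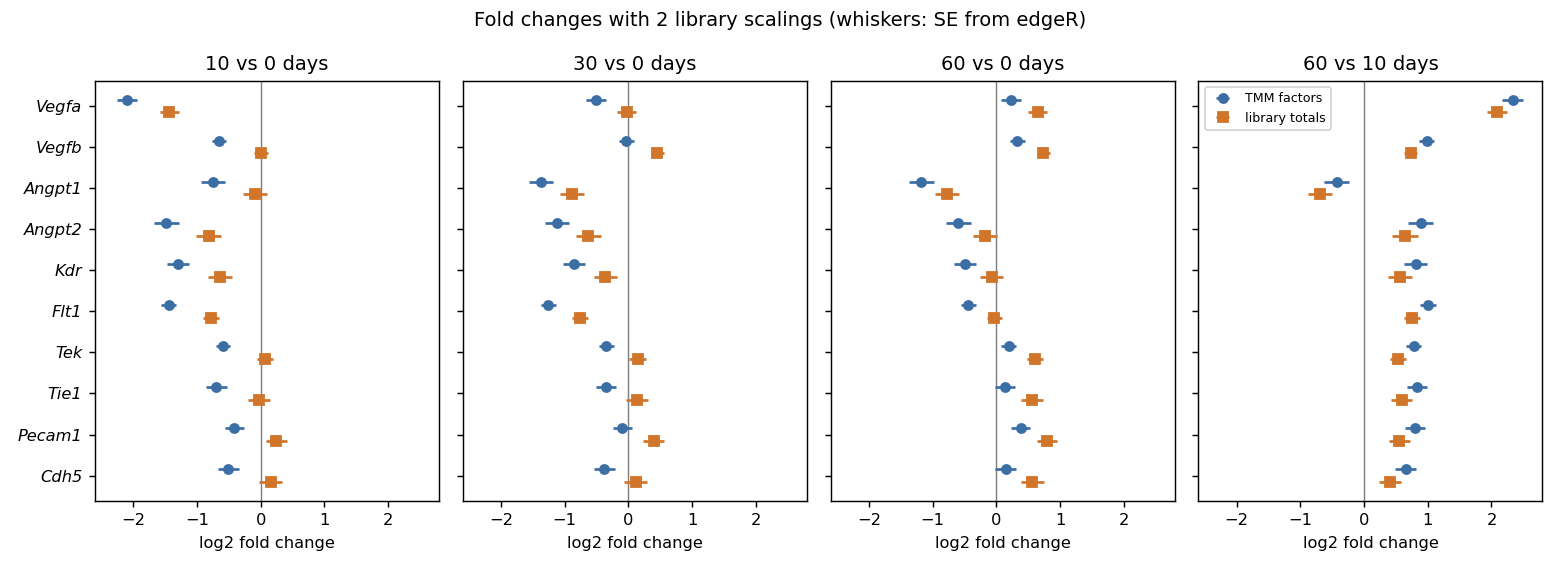
Log2 fold change of each gene for 10, 30 and 60 days against 0 days and for 60 against 10 days, with TMM factors (blue circles) and library totals (orange squares); whiskers are SE. With TMM factors all 10 points lie below 0 at 10 days, while with library totals Vegfb, Tek, Pecam1 and Cdh5 lie above it.

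Over the later comparisons, which share the 0 day libraries with the first, the 10 genes separated. At 30 days against 0 days 0 were called higher and 6 lower (Vegfa, Angpt1, Angpt2, Kdr, Flt1 and Tek), beside 33.7% and 30.9% of all genes; library totals gave 2 higher and 3 lower, beside 63.1% and 11.9%. At 60 days 2 were called higher (Vegfb and Pecam1) and 4 lower (Angpt1, Angpt2, Kdr and Flt1), beside 29.9% and 29.1% of all genes. Library totals turned that to 6 higher and 1 lower, beside 57.8% and 12.1%, the gene called lower being Angpt1. Against 0 days, 8 of the 10 were lower without overlap at 30 days and 1, Angpt1, at 60 days, beside 29.1% and 26% of all genes. Without 0 day library 3, 3 of the 10 were called at 60 days in place of 6.

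The clearest shared movement was the rise between 10 and 60 days. At 60 days 9 of the 10 genes were called higher than at 10 days and 0 lower, beside 29.1% and 31.9% of all genes, and the 9 calls held in each of the 16 fits that left out 1 library. With library totals 8 were called higher, beside 17.7% of all genes, and Angpt1 was called lower, beside 45.5%; Cdh5 then missed the threshold (0.41, adjusted p = 0.0539). The rises were 5.04-fold for Vegfa, 2.01-fold for Flt1, 1.98-fold for Vegfb, 1.85-fold for Angpt2, 1.78-fold for Tie1, 1.75-fold for Kdr, 1.74-fold for Pecam1, 1.72-fold for Tek and 1.57-fold for Cdh5. The libraries of the 2 times did not overlap for 8 of these, Pecam1 being the exception, beside 23.7% of all genes that were higher without overlap.

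Within this rise, 30 days against 10 days brought calls for Vegfa (1.58 ± 0.161, adjusted p = 1.46e-06), Vegfb (0.62 ± 0.117, adjusted p = 0.000382) and Kdr (0.45 ± 0.175, adjusted p = 0.0461) upward and Angpt1 downward. That made 3 higher and 1 lower, beside 23% and 24.3% of all genes (13.1% and 34.5% with library totals, where Kdr was not called). The Kdr call was lost in 9 of the 16 fits without 1 library (adjusted p up to 0.145), namely 0 day libraries 1 and 3, 10 day libraries 2 and 4, 30 day libraries 2, 3 and 4 and 60 day libraries 2 and 3; 7 of the 10 genes were called without 10 day library 3 or 60 day library 1. Vegfa, Vegfb and Flt1 were higher and Angpt1 lower without overlap, 3 and 1 of the 10, beside 21% and 22.8% of all genes. From 30 to 60 days 7 were called higher and 0 lower (Vegfa, Vegfb, Flt1, Tek, Tie1, Pecam1 and Cdh5), beside 10.3% and 12.4% of all genes. Library totals left Vegfa, Flt1 and Tek called higher, beside 6.42% higher and 18% lower of all genes. Vegfa, Vegfb, Flt1, Tek and Cdh5, 5 of the 10, were higher without overlap, beside 8.87% of all genes. The number called was 3 without 30 day library 1 or 4 or 60 day library 2, and 4 without 60 day library 3 or 4.

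Ordered by mean level, Vegfa ran from 60 days through 0 and 30 days down to 10 days, and the neighbours 60 and 0 days did not pass the test. Angpt2, Kdr and Flt1 ran from 0 days through 60 and 30 days to 10 days; the pair 30 and 10 days did not pass for Angpt2 or Flt1, nor 60 and 30 days for Angpt2 or Kdr. Angpt1 ran from 0 through 10 and 60 to 30 days, and of its neighbours only 0 over 10 days passed. With TMM scaling Vegfb, Tek, Tie1, Pecam1 and Cdh5 ran from 60 through 0 and 30 to 10 days, which library totals did not keep. In that order only 60 over 0 days passed for Pecam1, 0 over 30 days for Tek, and 60 over 0 and 30 over 10 days for Vegfb, while no pair of neighbours passed for Tie1 or Cdh5. With library totals the mean at 0 days was the lowest of the 4 times for Vegfb, Tek, Pecam1 and Cdh5. For Tie1 the 0 day mean was then below the 30 day mean. The Tek difference at 30 days turned to 0.14 (adjusted p = 0.315). In the 60 day group library 1 was the lowest of the 4 for Vegfa, Angpt2, Kdr, Tek, Tie1, Pecam1 and Cdh5, and the highest for Angpt1.

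Ratios of 2 genes within a library do not depend on how libraries are scaled, and they showed where partners moved apart. The ratio of Vegfa to Vegfb fragments averaged 9.45, 3.41, 6.59 and 8.62 at 0, 10, 30 and 60 days, on the log2 scale 3.21 ± 0.325, 1.77 ± 0.0959, 2.72 ± 0.058 and 3.08 ± 0.298 (SD, n = 4). All 10 day ratios lay below those of every other time. The difference from 0 days was -1.44 at 10 days, with an exact two-sided permutation p of 0.0286, the smallest that 4 against 4 libraries can give, and 0.098 after adjustment over 24 such tests. Of the 24 tests 7 reached that smallest p, and 0 passed after adjustment. As no p can be smaller, a test could pass only if many more of the 24 reached it. The lack of a pass therefore does not show that the ratios were alike.

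The ratio of Angpt2 to Angpt1 averaged 0.861, 0.501, 0.994 and 1.35 at those 4 times. Its lowest values came at 10 days, from -1.50 to -0.75 on the log2 scale, and the 60 day libraries ran from -0.46 to 0.94. From 10 to 60 days it moved by 1.37 on the log2 scale without overlap (exact permutation p = 0.0286, adjusted 0.098), and the unoperated libraries overlapped both (from -1.06 to 0.13). The receptor pair Flt1 to Kdr stayed within overlapping ranges except at 30 days, when it was 0.41 lower on the log2 scale than at 0 days (exact permutation p = 0.0286, adjusted 0.098). Tie1 to Tek averaged 1.61, 1.49, 1.61 and 1.54 at the 4 times, with overlapping ranges in all 6 comparisons.

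Cdh5 is close to specific for endothelium, so the ratios to it were added as a description after the values had been seen, with no test. Flt1 to Cdh5 was lower than in controls by 0.91, 0.88 and 0.60 on the log2 scale at 10, 30 and 60 days, without overlap at any of the 3 times. Kdr to Cdh5 (0.78, 0.47 and 0.64 lower) and Angpt2 to Cdh5 (0.94, 0.73 and 0.70 lower) likewise stayed below the control range throughout. Tek to Cdh5 differed from controls by -0.07, 0.03 and 0.05 and overlapped them each time. Vegfa to Cdh5 was 1.56 lower at 10 days without overlap, and overlapped the controls at 30 and 60 days. Angpt1 to Cdh5 differed by -0.21, -0.997 and -1.34, without overlap at 30 days and with overlap at 10 and 60 days. Pecam1 to Cdh5 differed by 0.09, 0.28 and 0.23, without overlap at 30 days only.

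**Figure D3:**
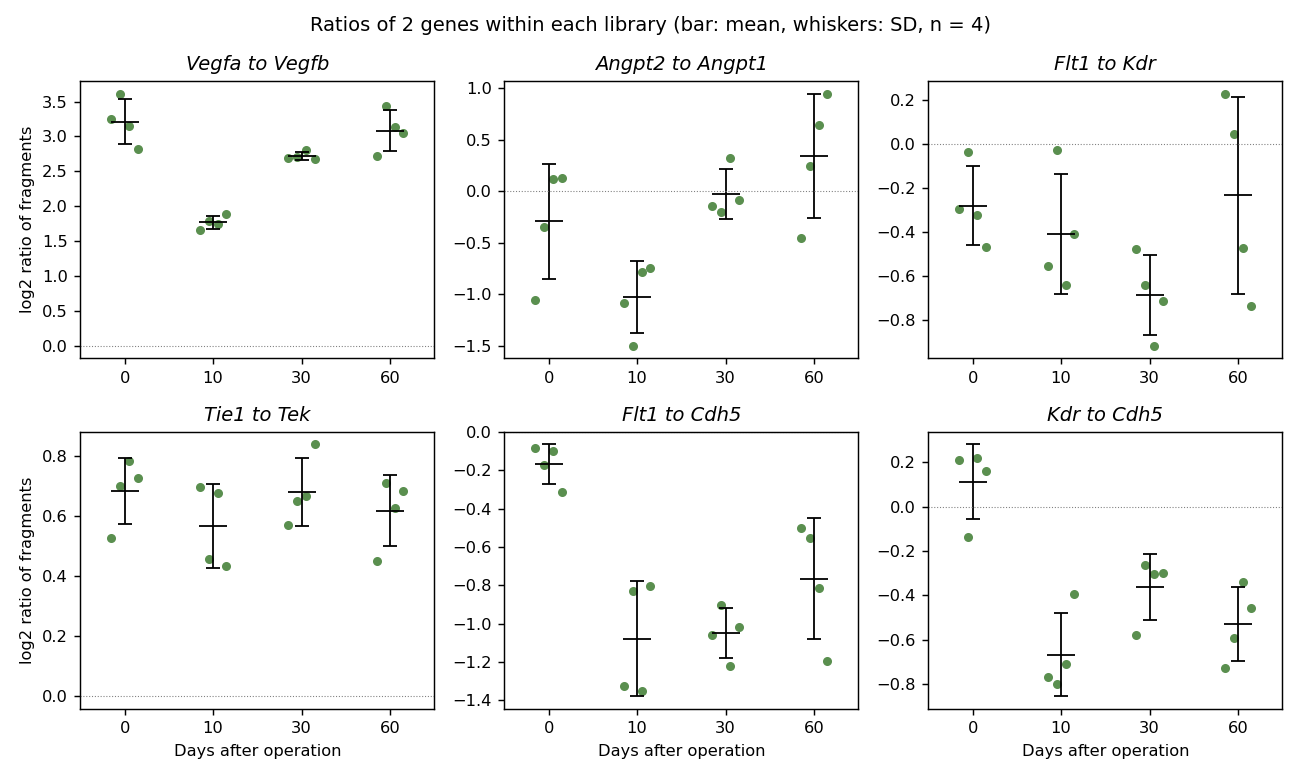
Log2 ratio of the fragments of 2 genes within each library against days after operation, with means (bars) and SD (whiskers) over 4 libraries. Vegfa to Vegfb is lowest at 10 days (1.66 to 1.89), Tie1 to Tek overlaps across all times, and Flt1 and Kdr relative to Cdh5 lie below every unoperated library at 10, 30 and 60 days.

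Other genes of the pathways and of vessel cells were taken from 11 lists, whose counts are descriptions and are read beside the shares of all genes given above. Among 21 further endothelial genes, 14 were called lower and 1 higher at 10 days (median log2 fold change -0.43), 8 lower and 2 higher at 30 days (median -0.24), and 0 lower and 1 higher at 60 days. Between 10 and 60 days 19 of the 21 were called higher. With library totals the splits against 0 days were 4 lower and 6 higher at 10 days, 1 and 9 at 30 days, and 0 and 17 at 60 days (medians 0.23, 0.25 and 0.60, beside 0.72, 0.54 and 0.45 for all genes), so the direction of the list at 10 and 30 days turned with the scaling. From 10 to 60 days library totals gave 12 higher and 1 lower. Gpihbp1, which holds lipoprotein lipase on the capillary wall, fell from 12.4 to 18.5 CPM at 0 days to 3.15 to 4.76 CPM at 10 days (-1.84 ± 0.253, adjusted p = 1.02e-05; library totals -1.18). S1pr1, the endothelial receptor for sphingosine 1-phosphate, fell 2.30-fold, and Nos3, the endothelial nitric oxide synthase, fell 2.22-fold at 10 days (adjusted p = 0.000114 and 1.43e-05), and both calls held with library totals. Cd93 of the list went the other way, from 35.4 to 39.9 CPM at 0 days to 42.6 to 55.65 CPM at 10 days. Aplnr and Plvap had means of 19.9 and 11.45 CPM at 0 days and 32.3 and 17.15 CPM at 30 days.

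Tip cell and Notch genes, which act when vessels sprout, had 8 of 13 called lower and 2 higher at 10 days (3 and 4 with library totals), and 10 called higher and 1 lower from 10 to 60 days. Esm1, a gene of tip cells that VEGF induces, had 22.4 to 38.4 CPM at 0 days, 3.90 to 8.59 CPM at 10 days, 7.12 to 12.99 CPM at 30 days and 14.4 to 26.3 CPM at 60 days. Its fall was 4.70-fold at 10 days (-2.23 ± 0.271, adjusted p = 3.28e-06) and 2.91-fold at 30 days (adjusted p = 0.000109), also called with library totals. Apln, the tip cell peptide apelin, fell 4.26-fold at 10 days (-2.09 ± 0.308, adjusted p = 2.08e-05), and at 30 and 60 days it did not pass the test. Dll4, the Notch ligand of tip cells, named here after its values were seen, was 2.13-fold lower at 10 days (adjusted p = 0.000247; library totals -0.43, adjusted p = 0.0635). Hes1, a target of Notch, rose against this direction, by 0.65, 0.77 and 1.23 on the log2 scale at 10, 30 and 60 days (adjusted p = 0.00409, 0.00121 and 2.59e-05). In the same list Heyl went from 15.8 to 18.3 CPM at 0 days to 7.52 to 11.4 CPM at 10 days. At 60 days Heyl was 18.5 to 23.8 CPM. Hey1 went from 1.695 to 2.054 CPM at 0 days to 1.087 to 1.306 CPM at 10 days. Library totals gave Hey1 means of 1.43 and 1.44 CPM. The Hey2 libraries of 0 and 10 days overlapped.

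Other VEGF and angiopoietin pathway genes were mixed, with 5 of 16 called higher and 3 lower at 10 days, 6 and 2 at 30 days and 7 and 1 at 60 days (11 and 0, 13 and 1, and 13 and 0 with library totals). Nrp1, a coreceptor of KDR named after its values were seen, fell 1.90-fold at 10 days (-0.92 ± 0.124, adjusted p = 6.29e-06), and library totals gave -0.27 (adjusted p = 0.0801). Sema3a, a semaphorin that binds NRP1, was 0.0446 to 0.183 CPM at 0 days, a few fragments per library, and 0.615 to 1.05, 1.44 to 2.73 and 1.05 to 1.42 CPM at 10, 30 and 60 days. Its log2 fold changes were 2.71 ± 0.379, 3.96 ± 0.354 and 3.33 ± 0.374 (adjusted p = 1e-05, 8.84e-08 and 1.72e-06). Sema3f, a semaphorin that binds NRP2, rose 2.51-fold at 10 days, and the membrane protease Mmp14 rose 3.53-fold (adjusted p = 4.55e-06 and 0.000122). Figf, the older symbol of VEGF-D, also named after its values were seen, was 0.179 to 0.281 CPM at 0 days and 0.760 to 1.77 CPM at 30 days (2.17 ± 0.335, adjusted p = 3.21e-05).

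Genes listed as inhibitors of angiogenesis were mostly higher. Of 8 genes, 5 were called higher and 1 lower at 10 days, 6 and 1 at 30 days, and 6 and 0 at 60 days. Vash2 was among those called higher each time. Thbs2, thrombospondin 2, went from 5.12 to 8.22 CPM at 0 days to 20.9 to 67.3 CPM at 10 days (2.84 ± 0.332, adjusted p = 2.2e-06). Vash2, of the vasohibin family and placed in that list although it is reported to favour vessel growth, rose 2.26-fold, 4.86-fold and 3.33-fold at 10, 30 and 60 days (adjusted p = 0.00025, 5.08e-07 and 1.05e-05). Cxcl10, an interferon-induced chemokine that restrains endothelial growth, rose 5.92-fold at 10 days (adjusted p = 0.000253). These rises were called with library totals too. Timp3 of the list went the other way, from 56.2 to 82.1 CPM at 0 days to 27.8 to 36.6 CPM at 10 days. It was 61.7 to 88.4 CPM at 60 days.

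Mural cells, the pericytes and smooth muscle cells, wrap vessels. Of 12 genes listed as their markers 10 were called lower and 0 higher at 10 days, 9 and 0 at 30 days, and 4 and 2 at 60 days (5 and 3, 3 and 1, and 3 and 3 with library totals), and this list holds Des, which muscle fibres express as well, and Pdgfb, which endothelium makes. Rgs5, a pericyte marker, fell from 53.8 to 63.8 CPM at 0 days to 21.0 to 29.9 CPM at 10 days, 13.9 to 16.7 CPM at 30 days and 21.1 to 30.2 CPM at 60 days, with log2 fold changes of -1.15, -1.88 and -1.23 (adjusted p = 4.7e-07, 3.91e-09 and 5.2e-07). Pdgfb, the endothelial ligand that draws pericytes, fell by 1.54, 1.30 and 0.98 on the log2 scale (adjusted p = 4.4e-07, 3.4e-06 and 8.21e-05). Like Angpt1 at 30 and 60 days, both stayed called lower with library totals, and here that held at all 3 times. Tagln, a smooth muscle actin-binding protein, fell 2.45-fold at 10 days (adjusted p = 0.00021). Other genes of the list went otherwise at some of these times. Pdgfrb had means of 36.1, 37.3, 38.8 and 49.6 CPM at 0, 10, 30 and 60 days. At the same times Cspg4 had means of 13.7, 6.21, 10.0 and 18.2 CPM, and Abcc9 had 236, 262, 154 and 151 CPM.

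Of 6 lymphatic genes 1 was called higher and 1 lower at 10 days, 2 and 2 at 30 days, and 4 and 0 at 60 days (3 and 0, 4 and 0, and 4 and 0 with library totals). Lyve1, a hyaluronan receptor of lymphatic endothelium that some macrophages also carry, was 4.67 to 6.09 CPM at 0 days and 10.9 to 17.2 CPM at 60 days (1.40 ± 0.175, adjusted p = 4.97e-06). Pdpn, podoplanin, which fibroblasts express too, rose 2.43-fold, 3.18-fold and 2.60-fold at the 3 times (adjusted p = 6.77e-06, 4.63e-07 and 6.06e-06). Flt4, the receptor for VEGF-C and VEGF-D, fell 2.00-fold at 10 days (adjusted p = 9.13e-05; library totals -0.34, adjusted p = 0.105). Fibroblast markers were called higher for 7 of 7 at 30 and 60 days, and macrophage and leukocyte markers for 13 of 13; their part in the Lyve1 and Pdpn values was not tested.

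With TMM scaling, oxygen sensing genes and hypoxia targets were mainly lower. Of 17 genes, 10 were called lower and 4 higher at 10 days. The split was 12 and 3 at 30 days and 11 and 2 at 60 days. Library totals gave 5 lower and 6 higher at 10 days, and 9 and 5 at both 30 and 60 days. The list median at 10 days then turned from -0.49 to 0.17, beside 0.72 for all genes. Epas1, which encodes the oxygen-regulated factor HIF-2 alpha and is high in endothelium, fell from 157.5 to 191.6 CPM at 0 days to 43.2 to 59.2, 36.0 to 52.1 and 67.9 to 90.0 CPM (-1.78, -1.98 and -1.18; adjusted p = 6.69e-09, 3.57e-09 and 1.17e-06). Ldha, lactate dehydrogenase A, fell 4.28-fold at 10 days (adjusted p = 3.7e-09) and is abundant in muscle fibres. Hif1an, which encodes the asparagine hydroxylase that restrains HIF, fell 4.64-fold at 30 days and 4.91-fold at 60 days (adjusted p = 7.26e-06 and 8.52e-06). At 10 days its difference was -0.62 (adjusted p = 0.0551, library totals 0.03). The 60 day libraries of Hif1an were uneven, at 26.05, 10.7, 9.76 and 8.49 CPM. Slc2a1 and Adm of the list went the other way, from means of 4.47 and 1.91 CPM at 0 days to 10.6 and 2.67 CPM at 10 days.

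**Figure D4:**
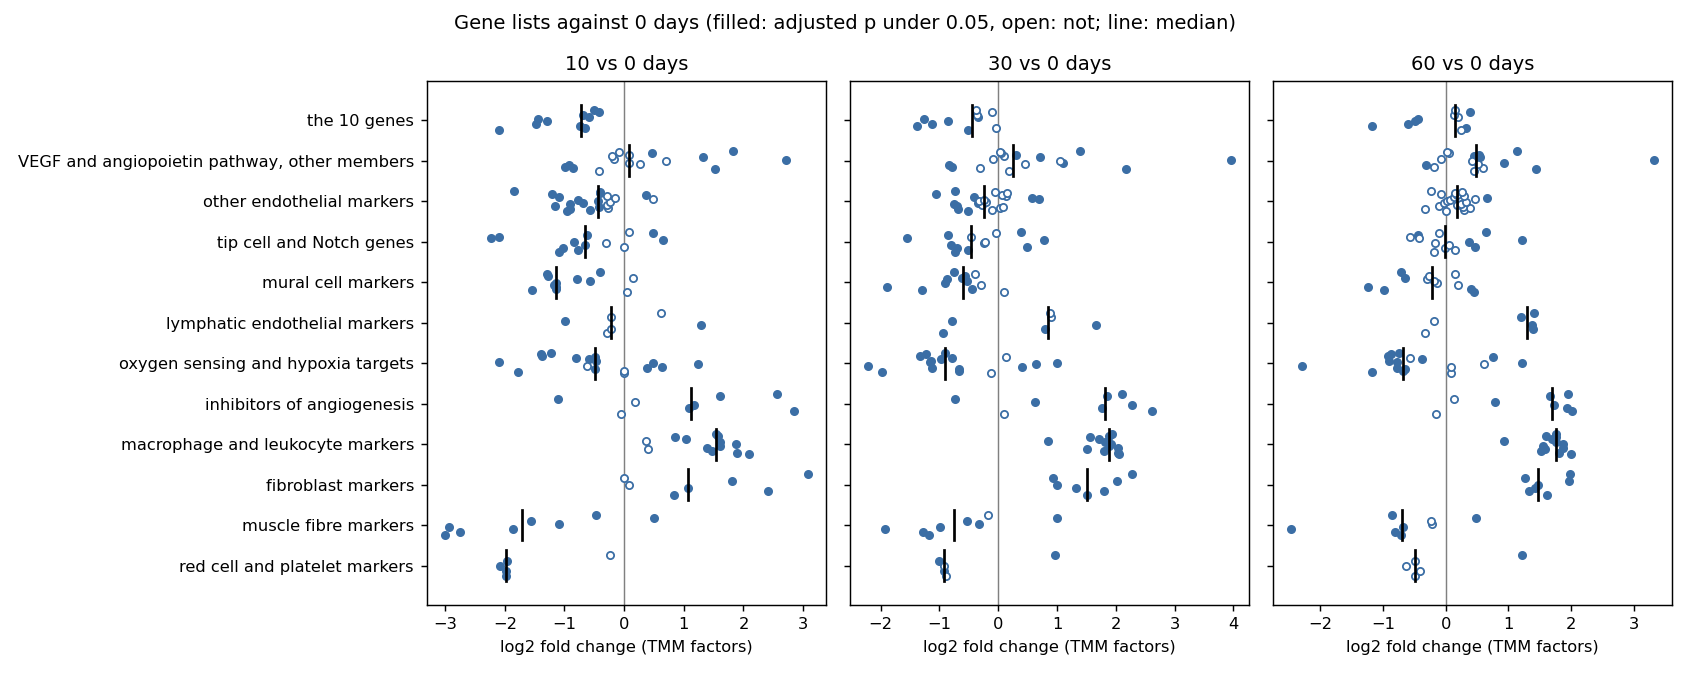
Log2 fold changes with TMM factors of the genes of each list at 10, 30 and 60 days against 0 days; filled points were called at an adjusted p under 0.05, open points were not, and black lines are medians. The 10 vascular genes have medians of -0.72, -0.45 and 0.14, and library totals give -0.06, 0.04 and 0.56.

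Markers of other tissue components changed as well, in differing directions, and their part in the values of the 10 genes was not tested. Muscle fibre markers summed to 216600 to 239100 CPM at 0 days, 66400 to 71220 CPM at 10 days, 107300 to 151500 CPM at 30 days and 128100 to 148600 CPM at 60 days. Of these 8 markers 7 were called lower and 1, Mb, higher at 10 days. From 10 to 60 days 5 were called higher and 2 lower. Macrophage and leukocyte markers rose, from 80.97 to 118.9 CPM at 0 days to 243.1 to 336.6 CPM at 10 days, with 11 of 13 called higher. Red cell and platelet markers summed to 695.2 to 2314 CPM at 0 days and 240.8 to 314 CPM at 10 days, with 4 of 5 called lower, and Hba1 and Hba2 among them are near-identical copies whose split is uncertain. Hbb, a beta globin gene, was 338.7 to 1076 CPM at 0 days and 105.5 to 138 CPM at 10 days (-2.08 ± 0.416, adjusted p = 0.000433). In 0 day library 3 Hbb was 1076 CPM, against 338.7 to 348 CPM in the other 3, and without it the difference was -1.46 (adjusted p = 0.00127).

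The tested genes whose log2 levels followed Vegfa, Cdh5 and Angpt2 most closely over the 16 libraries differed between the 3. For Vegfa they were Ndufb5, Cox7b, Cox7c, Mrps36 and Ndufab1, whose products are mitochondrial, with Pearson r from 0.984 to 0.988. Nearest to Cdh5 were Notch1, Card10, Tie1, Jam2 and Vtn (0.906 to 0.941), among them genes that endothelium expresses, such as Notch1, Tie1 and Jam2. Angpt2 was followed by Cdc25b, Npdc1, Spry4, Pcdh12 and Mmd (0.941 to 0.959). These values describe libraries that fall into 4 groups and share their scaling factors; with library totals they were 0.953 to 0.984 for Vegfa and 0.729 to 0.937 for Cdh5, and for Angpt2 0.791 to 0.883 apart from Npdc1, which dropped to -0.083.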

How the data were processed

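Polyadenylated RNA of 16 supraspinatus libraries was sequenced after miRNeasy extraction and a TruSeq mRNA v2 preparation, per the labels. Per the submitters' processing notes, bcl2fastq 1.8.4, FastQC, TopHat2 2.0.9, Bowtie2 2.1.0.0, Cufflinks and Cuffdiff 2.1.1 were used with build rn5; the annotation, strand setting and filters are not given in the sources used here. The authors deposited estimated counts: expected counts of fragments per gene and library from CuffDiff, not scaled for depth or gene length. Of 17147 genes, 233 held a fractional value, and all values were rounded to whole counts; the 10 genes followed here held none.

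Groups were taken from the time in each label. With edgeR 4.0.16 (R 4.3.3), genes were filtered by group, TMM factors computed, and 1 robust quasi-likelihood fit made over all 16 libraries and 11658 genes, with Benjamini-Hochberg adjustment over all of them. SE is the size of the log2 fold change divided by the square root of F. Replicates of 1 group differed beyond sampling noise in all 24 pairs (chi-square per gene 13.9 to 107). Ratios used counts plus 0.5 and exact permutation tests. The fit was tested on simulated counts: of 200 genes changed 2-fold between 0 and 10 days, 178 were recovered, with 8 false calls, among 11137 genes. Every other gene was held at its 0 day level, so the simulation cannot show how the scaling fares when most genes change. RefSeq GRCr8 names matched 14500 of the table's 17147 symbols and 10 of the 10 genes.

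The genes and lists were chosen with earlier results of these data known. Genes named from a list are at most 3 per list: those called against 0 days with the largest fold change, a mean of at least 1 CPM and no overlap between groups; the most alike genes are the 5 with the highest Pearson r. Ratios to Cdh5, and Figf, Nrp1 and Dll4, were added after their values were seen. Genes given beside these by level alone, to show members of a list that went otherwise, were also added after their values were seen. Alternatives were other scalings (RLE, upper quartile, library totals), DESeq2 1.42.0, limma-voom 3.58.1, other filters, a stricter threshold, a replicate block, the letter in the titles as a covariate, only the 2 groups compared, and leaving out each library. Robo4, Cd34 and Col1a2 were listed at 0 in all libraries, and Hif3a, Car9, Lect1, Ppbp and Gp9 were too low to test.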

Additional observations from a re-analysis of the deposited data

Results flagged for a closer look

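Of 56 groups of 4 libraries checked, 1 held a library far from the other 3, where chance flags about 1 in 20 groups. It was the first 10 day library for Vegfb, at 57.6 CPM with the nearest of the others at 47.6 CPM, a gap that made up 0.919 of the group's whole range. Without it the fall of Vegfb at 10 days kept its direction and its call with TMM scaling.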

How the results depend on the processing

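Library totals changed most: of 60 fold changes of the 10 genes, 32 kept direction and call, 13 lost and 5 gained the call and 10 reversed; RLE, upper-quartile, DESeq2 and limma-voom kept 57, 52, 57 and 59, and the cause was not tested. With library totals 4 genes were called at 10 days and 3 at 60 against 30 days; at an adjusted p under 0.01, 2 were called at 60 against 0 days, 2 at 30 against 10 days and 3 at 60 against 30 days. Of all genes, 2636 were called at 60 against 30 days, 1244 at the stricter threshold and 1530 with only those 2 groups fitted. Leaving out 1 library gave 3 to 6 genes at 60 against 0 days, 3 to 7 at 30 against 10 days and 3 to 9 at 60 against 30 days, while the joint test held in all 260 fits of a gene under an alternative (adjusted p up to 0.0283).

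Log2 fold changes that reversed with library totals were, at 10 days, Vegfb 0.0059, Tek 0.072, Pecam1 0.25, Cdh5 0.16, Lyve1 0.43 and Hif1an 0.032; at 30 days, Vegfb 0.45, Tek 0.14, Tie1 0.14, Pecam1 0.40, Cdh5 0.11, Apln 0.019 and Tagln 0.092; at 60 days, Gpihbp1 0.19, S1pr1 0.34, Nos3 0.30, Flt4 0.23, Hba2 0.010, Nrp1 0.090 and Dll4 0.23; and from 10 to 30 days, Cdh5 -0.044. Upper-quartile factors reversed Vegfb (0.090) and Pecam1 (0.025) at 30 days and S1pr1 (0.074) and Nos3 (0.034) at 60 days, and a minimum mean of 1 CPM reversed Vegfb at 30 days (0.001016). Leaving out 1 library crossed 0 for Vegfb at 30 days (-0.11 to 0.071), Angpt1 at 60 against 30 days (-0.040 to 0.31), and at 60 days S1pr1 (-0.24 to 0.11), Tagln (-0.024 to 0.30), Hba2 (-0.61 to 0.25) and Hba1 (-0.65 to 0.12); none of these was called.

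Libraries with the same column number did not pair (correlations of deviations from -0.237 to 0.216), and the replicate block called 10, 6, 6, 4, 10 and 7 of the 10 genes at 10, 30 and 60 against 0 days, 30 and 60 against 10 days and 60 against 30 days, where Angpt1 was gained at 60 against 10 days, and at 60 against 30 days Angpt2 was gained and Cdh5 lost. Of all genes it called 7244 at 10 days against 7304 without it. Depth limits Sema3a, Figf and Cxcl10 most, as 3 fragments come to 0.07518 to 0.1746 CPM.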
